A study of Caenorhabditis elegans with 6 samples.

Results

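Carboxylesterase genes named cest were measured in whole Caenorhabditis elegans by RNA sequencing. All 32 genes of the count table whose WormBase symbol begins with cest- were taken, of 46748 genes in all. Each of the 6 libraries was made from N2, the wild-type strain, and held hermaphrodites taken 5 days past the L4 larval stage. By the perturbation label, 3 libraries belong to L4440, the feeding plasmid without an insert, and 3 to T25B9.1, a feeding RNAi clone. T25B9.1 encodes the predicted glycine C-acetyltransferase of threonine breakdown. Since the source field mentions this RNAi for each of the 6 libraries, only the perturbation field set the groups. Separate cultures are not stated, so the p-values may reflect technical spread alone.

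Carboxylesterases are serine hydrolases of the alpha/beta-hydrolase fold, best known for splitting ester bonds in lipids and foreign compounds. In C. elegans several cest proteins are known to work in the other direction. They join small acids, bases or nucleosides to ascarosides, the glycolipid signals that worms secrete, or to glucosides. This assembly takes place largely in lysosome-related organelles of the intestine. Among the genes measured here, cest-3, cest-8 and cest-9.2 are known from mutants to be needed for ascarosides with a group attached to the sugar. The gene cest-1.1 is known for ascarosides that carry a gluconucleoside.

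Library totals ran from 25480225 to 38621940 counts, and 461 of 13494 tested genes (3.42%) passed an adjusted p of 0.05 by edgeR. The targeted gene T25B9.1 had 90, 92 and 132 counts under the L4440 label and 219, 317 and 430 under its own label, so it was higher, not lower, in the libraries labelled with its RNAi (log2 fold change 1.73, SE 0.245). Directions below are given for the T25B9.1 label against the L4440 label, and an exchange of the labels would turn each of them around. Marker genes of gut, epidermis, muscle, pharynx, neurons, germline, sperm and coelomocytes were all detected, with no marker at 0 counts in any library. The sperm markers were the lowest list, at a summed level of 0.896 to 1.63 CPM (counts scaled to library size with TMM factors).

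The level of the family was unequal between its members. Per kilobase of exon, cest-25 was the highest under the L4440 label at 43.3 ± 1.26 CPM per kb (SD, n = 3). Next came cest-4 at 21.6 ± 3.20 CPM per kb and cest-33 at 13.7 ± 0.972 CPM per kb (SD, n = 3). These 3 genes were the only members at or above 10 CPM per kb under the L4440 label. Another 20 members lay between 1 and 10, led by cest-32 (7.72 ± 0.851) and cest-17 (5.57 ± 0.395 CPM per kb; SD, n = 3), and 9 lay under 1. The same 5 genes led in the same order under the T25B9.1 label, at 32.1, 15.3, 12.5, 5.97 and 5.24 CPM per kb. In the middle of the order neighbours were not separated by their spread. From cest-9.1 (4.41 ± 0.264) down to cest-35.1 (3.33 ± 0.379 CPM per kb; SD, n = 3), 9 members lay within about 1 CPM per kb of each other.

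**Figure D1:**
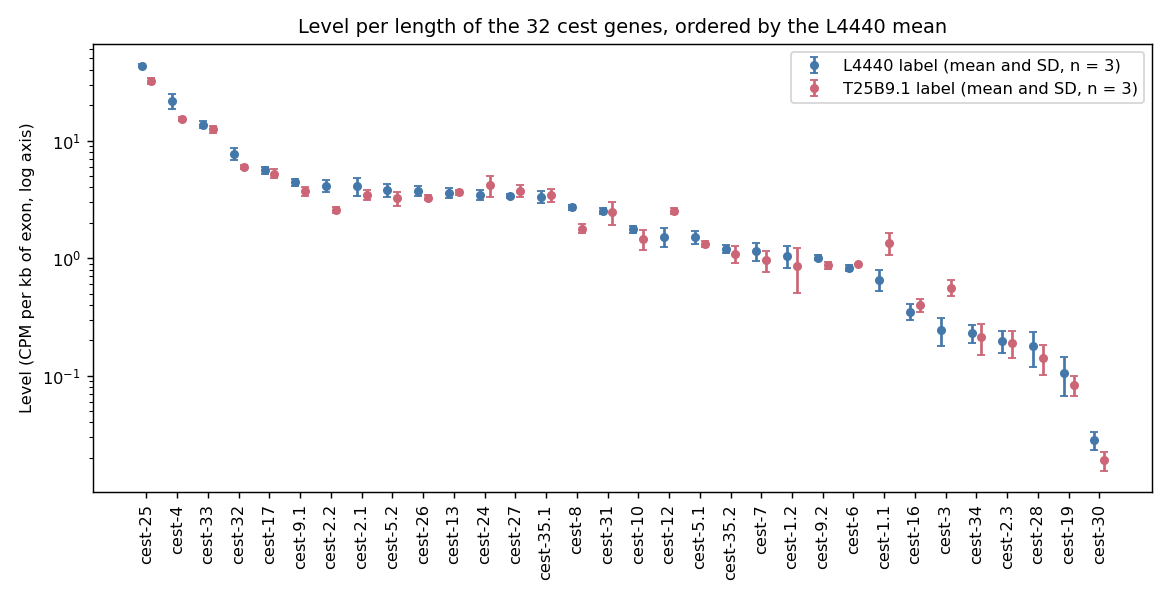
Level of each of the 32 cest genes in CPM per kilobase of exon on a log axis, as mean and SD of 3 libraries per label, ordered by the L4440 mean. The levels run from 43.3 CPM per kb for cest-25 to 0.0283 for cest-30, and the 2 labels lie furthest apart for cest-3 and cest-1.1.

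The whole family summed to 262, 276 and 281 CPM under the L4440 label and to 237, 225 and 232 CPM under the T25B9.1 label. The 2 groups did not overlap in this sum. The genes cest-25, cest-4 and cest-33 together held 49.7%, 53.2% and 51.5% of the family's counts under the L4440 label and 47.3%, 45.8% and 45.4% under the T25B9.1 label. Without these 3 genes the sum was 129 to 136 CPM under the L4440 label and at most 127 CPM under the T25B9.1 label, again without overlap. This remainder still holds members that passed the edgeR threshold, cest-2.2 and cest-8 lower and cest-3, cest-1.1 and cest-12 higher. From the L4440 to the T25B9.1 label, mean CPM went from 9.66 to 6.02 for cest-2.2 and from 5.2 to 3.42 for cest-8. It went from 5.59 to 9.28 for cest-12, from 1.38 to 2.83 for cest-1.1 and from 0.496 to 1.14 for cest-3. In these means the rises offset the falls, so the lower remainder came from members that did not pass. The remainder therefore does not show a fall of every member. In bulk RNA of whole animals, fewer cells of a type and less RNA per cell cannot be told apart.

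Of the 32 members, 30 had enough counts to be tested, and 7 passed an adjusted p of 0.05 by edgeR (23.3%, against 3.42% of all genes tested). The genes cest-3, cest-1.1 and cest-12 rose (1.13% of all genes tested were higher) and cest-2.2, cest-8, cest-4 and cest-25 fell (2.29% of all genes tested were lower). Of the family's log2 fold changes 9 were positive and 21 negative, with a median of -0.17, beside a median of 0.008 over all genes tested. No overlap between the labels was found for 11 tested members, where 17.9% of all genes tested showed no overlap. Of the 11, 3 lay above and 8 below under the T25B9.1 label (8.29% and 9.60% of all genes tested). Other enzyme families of foreign-compound metabolism had 13 of 62 tested genes past the threshold for cyp (21.0%), 11 of 58 for ugt (19.0%) and 4 of 31 for gst (12.9%). The differences between these shares were not tested.

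**Figure D2:**
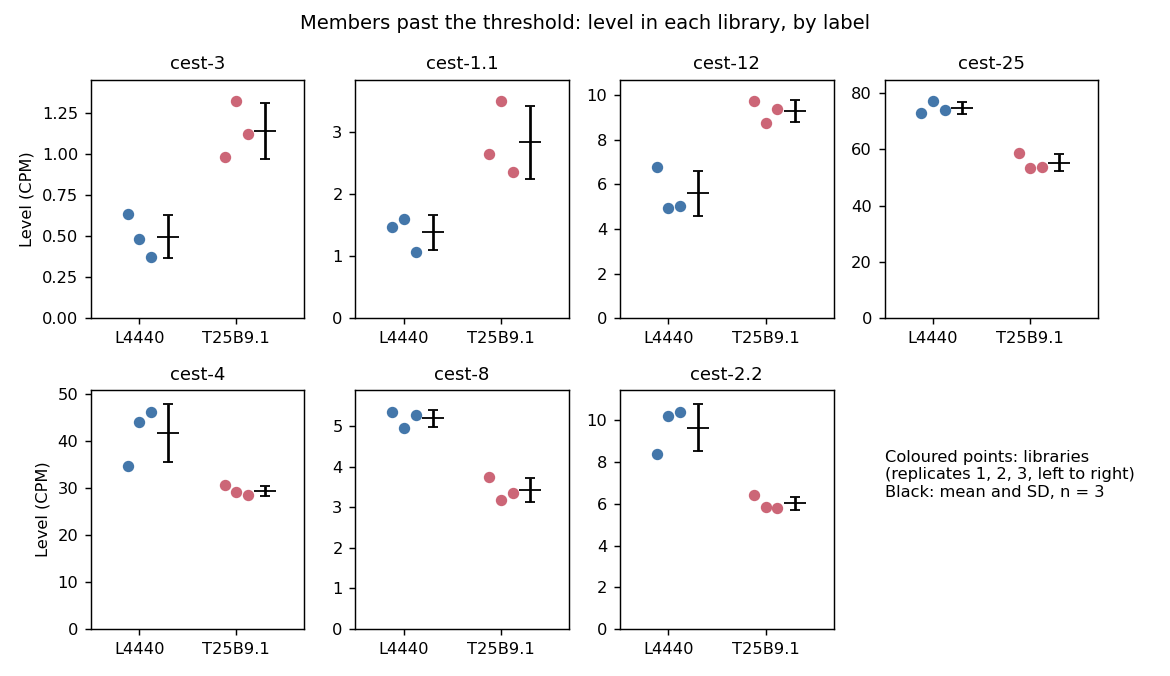
Level in CPM of the 7 members past the threshold in each of the 3 libraries per label, with mean and SD in black; every axis starts at 0. The libraries of the 2 labels do not overlap for any of the 7 genes, which were picked by the test on these same libraries. Higher under the T25B9.1 label are cest-3, cest-1.1 and cest-12, and lower are cest-25, cest-4, cest-8 and cest-2.2.

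The genes with known parts in ascaroside assembly moved in both directions. The gene cest-3 (WBGene00008451; chromosome X, 12241646 to 12244657, plus strand, in build WBcel235) was read at 0.633, 0.480 and 0.373 CPM under the L4440 label and at 0.984, 1.32 and 1.12 CPM under the T25B9.1 label. These are 22, 12 and 15 counts against 32, 33 and 40, so its level rests on few reads. It was 2.30-fold higher (log2 fold change 1.2, SE 0.258, edgeR adjusted p = 0.0293), the largest fitted fold among the tested members. The gene cest-1.1 (WBGene00011362; chromosome V, 14163255 to 14166730, minus strand) was at 1.47, 1.6 and 1.07 CPM under the L4440 label and at 2.64, 3.49 and 2.36 CPM under the T25B9.1 label. All 3 libraries labelled T25B9.1 lay above all 3 of the other label, a 2.06-fold difference (log2 fold change 1.04, SE 0.210, edgeR adjusted p = 0.0203).

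In the other direction, cest-8 (WBGene00007691; chromosome X, 12219660 to 12222745, plus strand) was at 5.35, 4.96 and 5.27 CPM under the L4440 label and at 3.75, 3.17 and 3.35 CPM under the T25B9.1 label. Each library labelled T25B9.1 was below each L4440-labelled one, and the level was 1.52-fold lower (log2 fold change -0.60, SE 0.128, edgeR adjusted p = 0.0280). The gene model of cest-8 shares 495 exon bases with cest-9.2 on the same strand, so reads there may have been assigned to either gene or left out. With both counted as 1 gene, an alternative chosen after seeing the data, the log2 fold change was -0.45 (edgeR adjusted p = 0.0411). The level of cest-9.2 itself, the third gene of this role, was 2.91 ± 0.157 against 2.50 ± 0.177 CPM (SD, n = 3). Its groups did not overlap, but it did not pass (log2 fold change -0.22, SE 0.141, edgeR adjusted p = 0.592).

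The remaining 4 members past the threshold included the 2 most abundant of the family. The gene cest-25 (WBGene00022178; chromosome III, 2734080 to 2739531, minus strand) was at 73.0, 77.1 and 74.0 CPM under the L4440 label and at 58.7, 53.4 and 53.8 CPM under the T25B9.1 label. With 1331 to 2973 counts per library it had the smallest standard error of the tested members, and it fell by 0.43 on the log2 scale (SE 0.0625, edgeR adjusted p = 0.00318). The gene cest-4 (WBGene00015930; chromosome IV, 6798911 to 6802337, minus strand) was at 34.6, 44.1 and 46.1 CPM against 30.5, 29.1 and 28.4 CPM. The L4440-labelled libraries spread more widely here, replicate 1 lying closest to the other group (log2 fold change -0.50, SE 0.103, edgeR adjusted p = 0.0223).

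The gene cest-2.2 (WBGene00013874; chromosome V, 14171639 to 14175355, minus strand) was at 8.38, 10.2 and 10.4 CPM under the L4440 label and at 6.40, 5.86 and 5.82 CPM under the T25B9.1 label. This was the largest fall of the family, 1.6-fold (log2 fold change -0.68, SE 0.121, edgeR adjusted p = 0.0104). The gene cest-12 (WBGene00013540; chromosome III, 12101745 to 12107541, minus strand), which has the longest coding sequence of the 32 at 2550 bases, was at 6.77, 4.96 and 5.05 CPM against 9.72, 8.75 and 9.36 CPM. It rose 1.66-fold, with no overlap between the groups (log2 fold change 0.73, SE 0.137, edgeR adjusted p = 0.0145).

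How far these calls rest on single libraries differed between the genes. By edgeR, cest-25 passed without each library in turn, with adjusted p-values of 0.00339 to 0.0190, and cest-8 passed in none of these fits (0.0547 to 0.111). The adjusted p of cest-2.2 was 0.0541 without L4440 replicate 3. That of cest-1.1 was 0.0970 without L4440 replicate 3 and 0.0582 when T25B9.1 replicate 1 was left out. The call of cest-12 was lost with L4440 replicate 2 (0.0640), L4440 replicate 3 (0.0688) or T25B9.1 replicate 1 (0.0679) left out. That of cest-4 held only when L4440 replicate 1 was the library left out, and the other 5 fits gave, for L4440 replicate 2 and 3 in that order, 0.108 and 0.0952, then for T25B9.1 replicates 1 to 3 values of 0.0646, 0.0626 and 0.0805. The same 5 fits gave 0.0882, 0.152, 0.0536, 0.0818 and 0.0753 for cest-3, and DESeq2 gave 0.0539. None of the 7 changed direction in any fit.

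**Figure D3:**
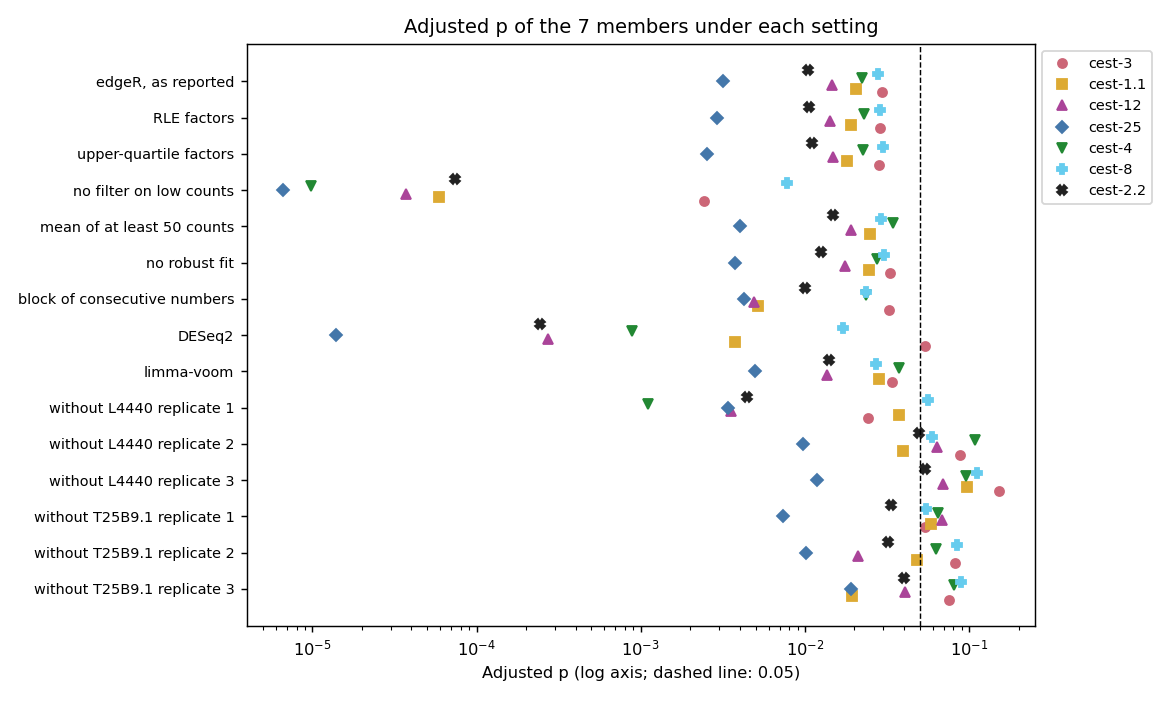
Adjusted p on a log axis for the 7 members under the fit as reported and 14 other settings, with the threshold of 0.05 as a dashed line. Points right of the line come almost entirely from fits that leave out 1 library; cest-25 stays left of it in every row, at 0.0190 or below.

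Many members lie close to another cest gene on the chromosome. Taking cest genes less than 10000 bases apart as a cluster, a distance chosen after seeing the positions, 18 of the 32 fell into 5 clusters and 14 stood alone. Members of a cluster need not be direct neighbours, as srd-26 and ocam-1 lie on either side of cest-1.1. Chromosome V holds 15 members, X 9, IV 5, III 2 and I 1. Both members on chromosome III, cest-25 and cest-12, passed the test, in opposite directions.

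The 2 clusters of 5 genes each held 1 member that rose and 1 that fell (1.13% and 2.29% of all genes tested). On chromosome V, cest-1.2, cest-1.1, cest-2.1, cest-2.2 and cest-2.3 lie within 25298 bases on the minus strand, and their log2 fold changes ran from -0.68 for cest-2.2 to 1.04 for cest-1.1. The others, cest-1.2 (-0.34, SE 0.271), cest-2.1 (-0.24, SE 0.143) and cest-2.3 (-0.069, SE 0.315), did not pass. Within a library, where depth and scaling cancel, the counts of cest-1.1 divided by those of cest-2.2 gave 0.175, 0.157 and 0.103 under the L4440 label. Under the T25B9.1 label this ratio was 0.413, 0.596 and 0.406.

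On chromosome X, cest-8, cest-9.2, cest-9.1, cest-7 and cest-3 lie within 24998 bases on the plus strand, and their log2 fold changes ran from -0.60 for cest-8 to 1.2 for cest-3. Here cest-9.1 was at 9.15 ± 0.548 CPM against 7.69 ± 0.728 CPM (SD, n = 3), without overlap and without passing (log2 fold change -0.25, SE 0.113, edgeR adjusted p = 0.387). For cest-7 the log2 fold change was -0.24 (SE 0.196). The counts of cest-3 divided by those of cest-8 gave 0.118, 0.0968 and 0.0708 under the L4440 label against 0.262, 0.418 and 0.336 under the T25B9.1 label. Both pairs were chosen for their opposite directions. Since the groups of each single gene did not overlap, the ratios could not overlap either, and they are only a description.

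**Figure D4:**
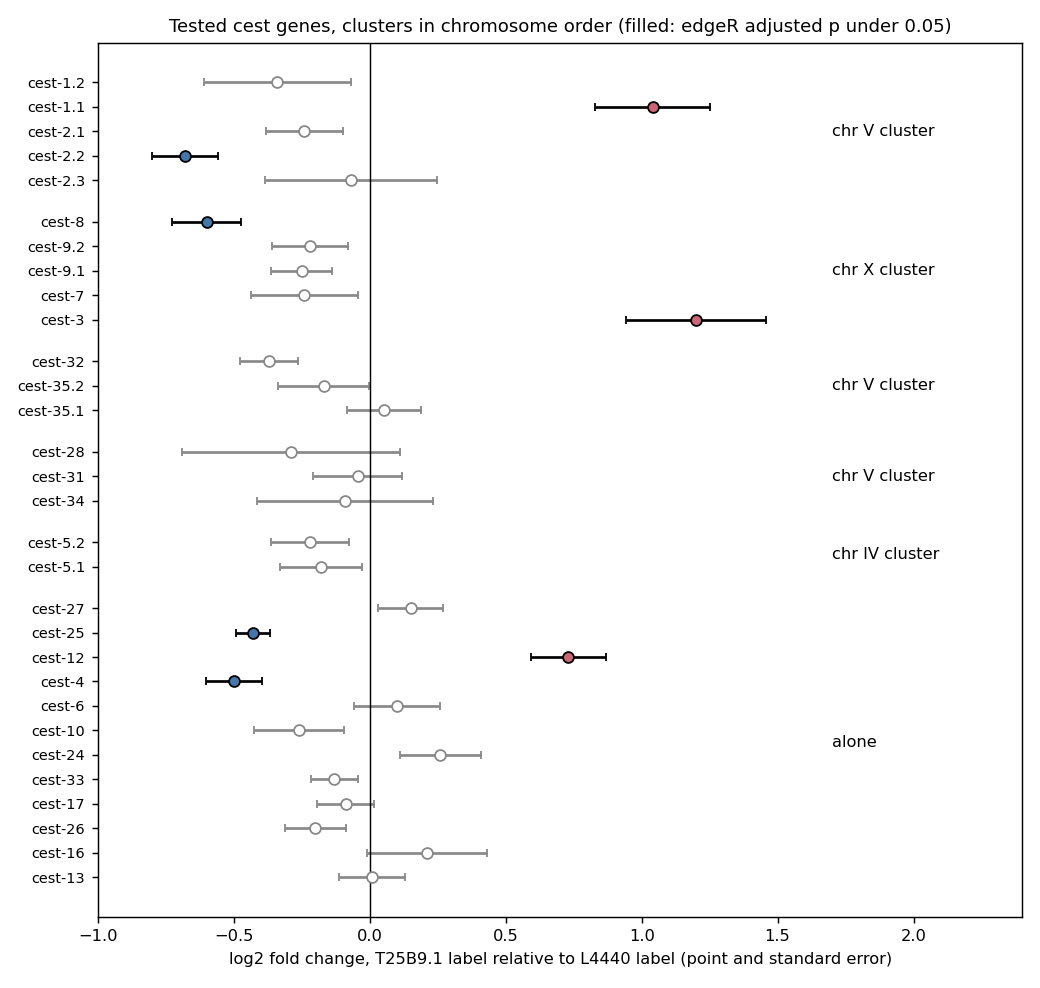
Log2 fold change, T25B9.1 label relative to L4440 label, with its standard error for the 30 tested members; clusters are in chromosome order and members standing alone come last. Filled points passed the test: 1 gene rose and 1 fell in each of the clusters of 5, while cest-25, cest-12 and cest-4 stand alone.

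In the 3 smaller clusters all 8 members were tested and missed the threshold, which 3.42% of all genes tested passed. With 8 genes this count does not set them apart from all genes. On chromosome V, cest-32 was the nearest to it of all members that did not pass. It was at 11.7, 14.6 and 13.6 CPM under the L4440 label and at 10.1, 9.95 and 10.7 CPM under the T25B9.1 label (log2 fold change -0.37, SE 0.106). Its edgeR adjusted p was 0.114, and 0.0334 without L4440 replicate 1. The neighbours cest-35.2 (-0.17, SE 0.169) and cest-35.1 (0.054, SE 0.136) lay closer to 0. In the cluster of cest-28, cest-31 and cest-34 the log2 fold changes were -0.29, -0.044 and -0.092, where cest-28, at 6 to 12 counts per library, had the largest standard error of the tested members, 0.401. In the pair on chromosome IV, cest-5.2 (-0.22, SE 0.143) and cest-5.1 (-0.18, SE 0.151) had nearly the same values.

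Among members standing alone, cest-33, the third most abundant of the family, was at 24.2 ± 1.72 CPM against 22.1 ± 1.39 CPM (SD, n = 3; log2 fold change -0.13, SE 0.0860, edgeR adjusted p = 0.627). The gene cest-17 was at 11.8 ± 0.839 against 11.1 ± 0.995 CPM (SD, n = 3; -0.089, SE 0.105). On the positive side, cest-24 ran from 7.44 to 8.86 CPM under the L4440 label and from 8.14 to 12.3 CPM under the T25B9.1 label (0.26, SE 0.15, edgeR adjusted p = 0.534). The log2 fold change was -0.20 (SE 0.113) for cest-26, -0.26 (SE 0.165) for cest-10, 0.15 (SE 0.119) for cest-27, 0.21 (SE 0.220) for cest-16, 0.10 (SE 0.159) for cest-6 and 0.0086 (SE 0.120) for cest-13. Over the 30 tested members the standard error had a median of 0.143. Too few counts for the test were found for 2 members, cest-19, with 5 to 11 counts per library, and cest-30, with 1 or 2.

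Genes outside the family that act beside it were read from 2 lists. Of 12 genes of ascaroside side-chain shortening and assembly, all tested, 1 was higher and 1 lower by edgeR (16.7% called, against 3.42% of all genes tested), with a median log2 fold change of -0.12. The groups did not overlap for 6 of the 12, of which 1 lay above and 5 below under the T25B9.1 label (8.29% and 9.60% of all genes tested). Both called genes encode peroxisomal acyl-CoA oxidases, which take the first step of side-chain shortening. The level of acox-1.2 was 14.9, 13.0 and 13.6 CPM under the L4440 label and 20.6, 19.8 and 24.6 CPM under the T25B9.1 label (log2 fold change 0.65, SE 0.104, edgeR adjusted p = 0.00610). The level of acox-1.5 was 60.1, 64.3 and 67.1 CPM against 40.2, 40.5 and 37.4 CPM (log2 fold change -0.70, SE 0.0685, edgeR adjusted p = 0.000329). Nearest to the threshold among the other 10 was acs-7, an acyl-CoA synthetase gene needed to load groups onto ascarosides (0.49, SE 0.182, edgeR adjusted p = 0.246). Next came glo-3, a gene needed for the lysosome-related organelles, at 2.79, 2.96 and 4.20 CPM against 2.52, 2.45 and 2.59 CPM (-0.41, SE 0.179, edgeR adjusted p = 0.356). The oxidase gene acox-1.4 followed (-0.19, SE 0.0827, edgeR adjusted p = 0.372).

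The second list holds relatives of the same fold that carry other names. Of 7 such genes 6 were tested and 0 passed by edgeR or limma-voom (3.42% and 3.22% of all genes tested). An unadjusted edgeR p under 0.05 was found for 2, beside 1765 of all 13494 genes tested. DESeq2 called 1 (2.54% of the 22684 genes with any count, a wider set than the 13494). With 6 genes tested, these counts do not set the list apart from all genes. The gut esterase gene ges-1 was at 48.1, 45.5 and 48.3 CPM under the L4440 label and at 41.9, 38.1 and 37.1 CPM under the T25B9.1 label. Its groups did not overlap, and it lay close to the threshold (log2 fold change -0.28, SE 0.0704), with an adjusted p of 0.0639 by edgeR and 0.0464 by DESeq2. The acetylcholinesterase genes ace-3 and ace-2 had log2 fold changes of 0.61 (SE 0.209, edgeR adjusted p = 0.198) and -0.15 (SE 0.132, edgeR adjusted p = 0.736). The list's median was -0.059.

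Since cest proteins are known from the intestine, its markers are set beside the family. Of 10 intestinal markers 3 passed by edgeR (30%, against 3.42% of all genes tested), in both directions: the peptide transporter gene pept-1 (0.91, SE 0.123) and the intermediate filament gene ifb-2 (0.74, SE 0.0841) were higher, and the cysteine protease gene cpr-6 (-0.58, SE 0.0901) was lower. Among the 7 that did not pass, ges-1, given above, was the nearest to the threshold. The actin gene act-5 was lower in each library labelled T25B9.1 than in any of the other label (-0.29 on the log2 scale, SE 0.0858, edgeR adjusted p = 0.127). The transcription factor gene elt-2 followed (-0.11, SE 0.143, edgeR adjusted p = 0.841). The median log2 fold change of the 10 was -0.0064, with 5 positive and 5 negative. Their summed level was 2229 to 2384 CPM under the L4440 label and 1795 to 2007 CPM under the T25B9.1 label, a sum that cpr-6 leads at 1135 ± 69.4 against 759 ± 18.7 CPM (SD, n = 3). Of the 4 pharyngeal markers 0 passed by edgeR (against 3.42% of all genes tested). DESeq2 called 1 (2.54% of the 22684 genes with any count) and limma-voom 1 (3.22% of 13494 genes tested). The sum of the 4 was 19.2 to 33.4 CPM under the L4440 label and 36.4 to 44.5 CPM under the T25B9.1 label. Sums of the epidermal, body-wall muscle, neuronal, germline, sperm and coelomocyte markers overlapped between the labels. Such sums are set mostly by the most abundant markers of a list and say little about the others. Whether the differences in these markers had a part in the levels of the cest genes was not tested.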

How the data were processed

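Libraries of total RNA from whole animals were prepared with version 2 of the TruSeq RNA kit, per the labels' protocols; this kit is not known to mark strand. The authors deposited raw read counts per gene on build WBcel235; the submitters' processing notes name featureCounts 1.4.6-p4, the aligner STAR 2.4.1d and bcl2fastq 1.8.4. The use of strand and the treatment of reads matching more than 1 gene are not given in the sources used here, so reads of close paralogs and overlapping genes are uncertain. A deposited RPKM table of the same libraries was not used here.

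Libraries were grouped by the perturbation label and numbered in accession order. Within a group, pairs of libraries had a chi-square of 6.18 to 40.8 per degree of freedom, well above sampling noise, and all were kept as separate samples. Genes were tested with edgeR 4.0.16 (R 4.3.3; quasi-likelihood F-test, robust fit, TMM factors, filterByExpr with a minimum count of 10). The p-values were adjusted by Benjamini-Hochberg over 13494 genes, and 0.05 was the threshold. Each SE was computed as log2 fold change over the root of F. With 3 libraries per label the smallest exact permutation p is 0.1, so no such test was used. On simulated data of this comparison (5 runs of about 13310 genes, 200 changed), the test recovered 57.9% of 1.5-fold, 82.4% of 2-fold and 94.5% of 4-fold changes. Of its calls 8.97% were false, a larger share than the threshold of 0.05 aims at. Levels are CPM; per kilobase they are divided by the union of exon bases in Ensembl release 115 of the same build, and symbols come from a table of gene names (43693 matched).

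The members and lists were chosen with earlier results of these data known. Genes were named by rule: the target, all members, and from the 3 lists described those past the threshold and the 3 of smallest p among the rest (the other lists are given as counts or sums); cest-7 and other cluster members were named to complete their clusters, and cest-13 and the like to account for every member. Alternatives were RLE or upper-quartile scaling, no filter, a minimum mean of 50 counts, no robust fit, DESeq2 1.42.0, limma-voom (limma 3.58.1), a block of consecutive library numbers, and leaving out each library. Protein and promoter features were planned but not analysed here.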

Additional observations from a re-analysis of the deposited data

How the results depend on the processing

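The family's 7 calls were the same 7 genes under limma-voom, without the robust fit, under the block of consecutive library numbers, with low counts unfiltered, and with RLE or upper-quartile factors. Of the 7, DESeq2 called 6 and missed cest-3. The same 6 were called when only genes averaging at least 50 counts were kept, a filter that left cest-3 untested. Leaving out each library gave 1 to 7 called members, with 1 without L4440 replicate 3. The count over all genes was 461, 719 with low counts unfiltered, and 272 to 517 with 1 library left out. The median log2 fold change of the family ran from -0.17 to -0.13 with 1 library left out and was -0.21 among genes averaging at least 50 counts, a setting that drops its least abundant members. No named gene that passed changed sign under any of these settings.

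The title numbers run consecutively across the labels, but nothing says that they pair libraries. Deviations from the group means correlated at -0.0514 to 0.222 between consecutive numbers. Other pairs across the labels were not set beside them, so these values cannot decide whether libraries were paired. A block by these numbers gave 597 calls over all genes and 7 in the family. Depth limits the least abundant members: a log2 standard error of 0.401 for cest-28 leaves a change of the size seen in cest-25 not detectable.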
